A study of Homo sapiens with 8 samples.

Results

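The clustered protocadherin genes were taken as the GENCODE protein-coding genes on chromosome 5 whose symbols start with PCDHA, PCDHB or PCDHG. This rule gave 53 genes of the 19970 protein-coding genes on the autosomes and chromosome X, with 15 alpha, 16 beta and 22 gamma members. All 53 lie on the plus strand, from the start of PCDHA1 at chr5:140786136 to the end of PCDHGC3 at chr5:141512977 (hg38). Peaks were taken when their summit lay between 100 kb before the first and 100 kb after the last gene, and were assigned to a gene start (summit within 1 kb of the 5′ end of the gene record) or to the space between. The region held 55 of the 42765 peaks of CTCF replicate 1, 51 of 36082 of CTCF replicate 2, 5 of 8706 of Sp1 antibody 1, 3 of 5973 of Sp1 antibody 2 and 0 of 106 of rabbit IgG.

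Chromatin occupancy was measured by ChIP-seq in U-2 OS, a human osteosarcoma cell line, after 6 min in 1% formaldehyde. CTCF was precipitated with antibody ab128873 in 2 replicates of clone C32, a single clone with an endogenous FLAG-Halo-CTCF knock-in. Sp1 was precipitated once with antibody MA5-32497 (antibody 1) and once with PA5-29165 (antibody 2), beside 1 rabbit IgG library, in cells with an endogenous V5-Halo-SP1 knock-in. The input libraries of both lines had no peak list here. The sample titles call the Sp1 cells parental and the series text calls the CTCF cells wild type, against the genotypes given for each sample, which were followed here. Target, cell line and experiment changed together, so the difference between CTCF and Sp1 values cannot be told apart from a difference between experiments. Peak lists carry no expression, so the osteosarcoma label was not checked against marker genes. The lists give no read counts, and a peak's fold enrichment mixes how many of the alleles were occupied with how strongly, which cannot be told apart in bulk cells.

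Clustered protocadherins are cadherin-like proteins of the cell surface, best known in neurons, where each cell uses a small set of them as an identity tag for self-avoidance. Each alpha and gamma gene is a large variable first exon with a promoter of its own that is spliced to constant exons shared by its cluster, and each beta gene is a single exon. Most of these promoters carry a conserved sequence element that CTCF is known to bind, many alpha exons hold a further CTCF site inside the coding sequence, and distal enhancers of the locus carry CTCF sites that face the promoters. Some of the C-type genes at the ends of the alpha and gamma clusters, and PCDHB1, are known to depart from this layout.

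The sequences below show the best-matching stretch at some of these starts and in some peaks of the space between. Each is read 5′ to 3′ from hg38, with 5 bases on each side in lower case and the 20 bases that best matched a CTCF matrix in capitals. The matrix was built from 30569 CTCF peaks found in both replicates outside chromosomes 5 and 8, and a score in bits says how well a stretch resembles it. The set covers upstream stretches of genes with a strong peak, of a gene pair with the same bases, and of genes with no peak, then exonic stretches of alpha genes and sites in the space between. Being printed does not make a stretch a match. PCDHGA5 (−0.93 bits), PCDHGB4 and PCDHGB5 (1.14), PCDHGA3 (2.04) and PCDHGB1 (3.42) were under the 6.72 bits used below as the level for short windows.
PCDHA4 upstream, chr5:140806975-140807004, plus strand: ggtttGGAGCCACATGATGTCGCTCtttac
PCDHA8 upstream, chr5:140841126-140841155, plus strand: cttttGAAGCCACATGATGTCGCTGtctac
PCDHA11 upstream of the RefSeq start, chr5:140868879-140868908, plus strand: cagttTTAGGCGCAAGGTGTCGCTCtttac
PCDHB5 upstream, chr5:141135175-141135204, plus strand: taaatTAGGACGCCTGGTGGCGCTGcaggc
PCDHB9 upstream, chr5:141187070-141187099, plus strand: tgttgGAAGCCACAAGGTGGCGCTGcagac
PCDHB10 upstream, chr5:141192295-141192324, plus strand: tggtgGAGGCCACACGGTGGCGCTGcaggc
PCDHGA3 upstream, chr5:141343763-141343792, plus strand: acggtTAGGCCTCTTAGTGTCGCTGttgac
PCDHGB1 upstream, chr5:141350021-141350050, plus strand: ccaagACAACCTCTGGGCGCCGCTGtcgac
PCDHGB4 upstream, chr5:141387613-141387642, plus strand: ctagtGCTGACTCTGGGCGCCGCTGttggc
PCDHGB5 upstream, chr5:141397859-141397888, plus strand: ctagtGCTGACTCTGGGCGCCGCTGttggc
PCDHB3 upstream, no peak, chr5:141100389-141100418, plus strand: tgcaaGCGAACGCATGGTGGCGCTGttgac
PCDHB4 upstream, no peak, chr5:141121719-141121748, plus strand: tcaatCAAGACGCAGGGTGGCGCTGcaggc
PCDHB15 upstream, no peak, chr5:141245310-141245339, plus strand: gcaaaGACAACGCATGGTGGCGCTGcaggc
PCDHGA5 upstream, no peak, chr5:141364103-141364132, plus strand: ctggtTAGGACTCTGAGTGTCGCTGttgac
PCDHGA12 upstream, no peak, chr5:141430444-141430473, plus strand: ttttgAAGAACAGTAGGTGGAGCTAtttaa
PCDHA4 coding exon, chr5:140807635-140807664, plus strand: tctcgGTTTCCACTAGAGGGCGCCTcggat
PCDHA7 coding exon, chr5:140834831-140834860, plus strand: tctcgGTTTCCACTAGAGGGCGCGTccgat
PCDHAC1 5′ exon, chr5:140926603-140926632, plus strand: gtctcTGCACCCCTAGGCGGCGCTGcgctc
Site between the alpha constant exons and PCDHB1, chr5:141041363-141041392, minus strand: cctcaTCTGCCACCAGGTGGCAGGTggatc
Site in the last gamma exon, chr5:141512494-141512523, minus strand: aggctATGGCCACTAGGGGGCGCACtgggg
Strongest site of the region, in a DIAPH1 intron, chr5:141524885-141524914, minus strand: gatgcTCAGCCAGCAGGTGGCGCTGggagc

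CTCF peaks lay at most protocadherin starts and Sp1 peaks at none. In CTCF replicate 1, 38 of 53 starts had a summit within 1 kb, against 22% of all protein-coding gene starts under the same rule. In replicate 2, 35 of 53 starts had one, against 15.9% of all genes. All 35 of replicate 2 were also in replicate 1, so 35 starts (66%, 95% Wilson interval 52.6 to 77.3%) carried a peak in both, against 15.4% of all genes. The interval treats each gene as 1 draw and says nothing of the spread between cell cultures. No start had a peak of Sp1 antibody 1 or of antibody 2, while 32.1% and 20.6% of all protein-coding starts did. No protocadherin start had an IgG peak either.

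**Figure D1:**
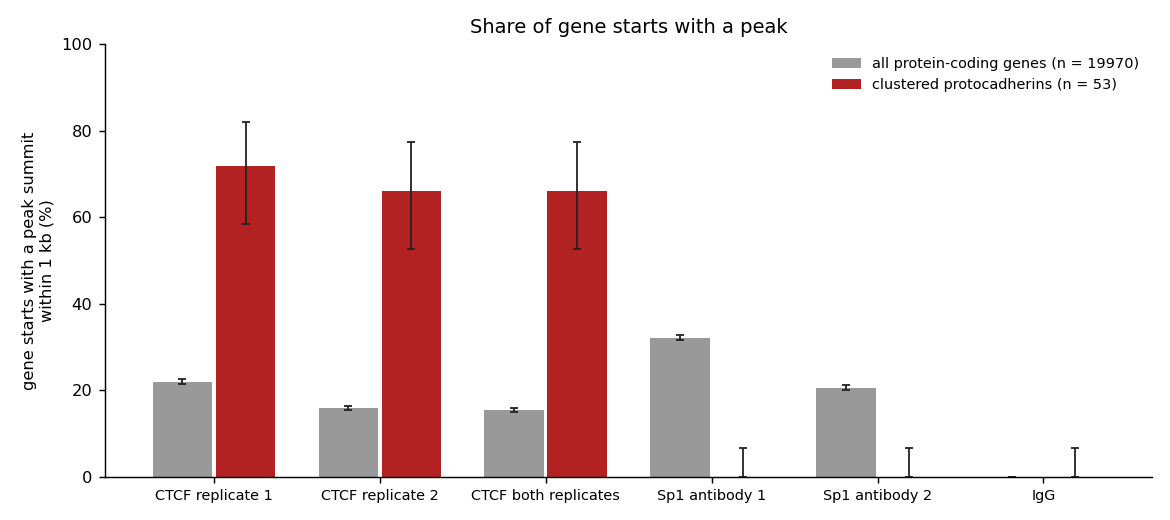
Share of gene starts with a peak summit within 1 kb (y axis, percent) in each list, for all protein-coding genes (gray) and the 53 clustered protocadherins (red); bars start at 0 and whiskers are 95% Wilson intervals over genes. The red CTCF bars stand at 71.7% and 66% and the red Sp1 bars are at 0.

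The starts were not among the strongest CTCF sites of the cells. Over the 38 starts of replicate 1 the median fold enrichment was 30.53, beside 27.52 for its whole list, and over the 35 of replicate 2 it was 16.13, beside 20.02. With every list reduced to its 5973 highest peaks by −log10 p, the size of the smallest list, PCDHAC1 was the 1 protocadherin start left with CTCF in both replicates, beside 3.03% of all protein-coding starts. Ranked by fold enrichment instead, 2 were left, PCDHAC1 and PCDHA4, beside 2.59% of all starts. Sp1 peaks were at 0 protocadherin starts in both settings, beside 29.6% and 30% of all starts for either antibody.

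Other gene families stood near the share of all genes for CTCF. Of 39 HOX genes, which also form clusters of related genes, 6 (15.4%) had CTCF in both replicates, and of 249 zinc finger genes on chromosome 19, 31 (12.4%) did, beside 15.4% of all genes. Sp1 antibody 1 had a peak at 4 of the 39 HOX starts (10.3%) and at 108 of the 249 zinc finger starts (43.4%), beside 32.1% of all genes. The differences between these families were not tested.

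The CTCF peaks were also dense. The region of 926.8 kb held 51 summits shared by both replicates, where windows of the same length tiled over the autosomes and chromosome X had a median of 9. Among 3256 such windows outside the region, 1 held at least as many, with 53. Median spacing between neighboring member starts was 6704 bp and the smallest was 2459 bp, so no peak was within reach of more than 1 start. Of the 55 peaks of replicate 1, 51 were overlapped by a replicate 2 peak. The 4 that were not were weak, at 8.682-fold for PCDHA13, 9.26-fold for PCDHGB6, 9.457-fold for PCDHGA11 and 6.945-fold in the space between.

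**Figure D2:**
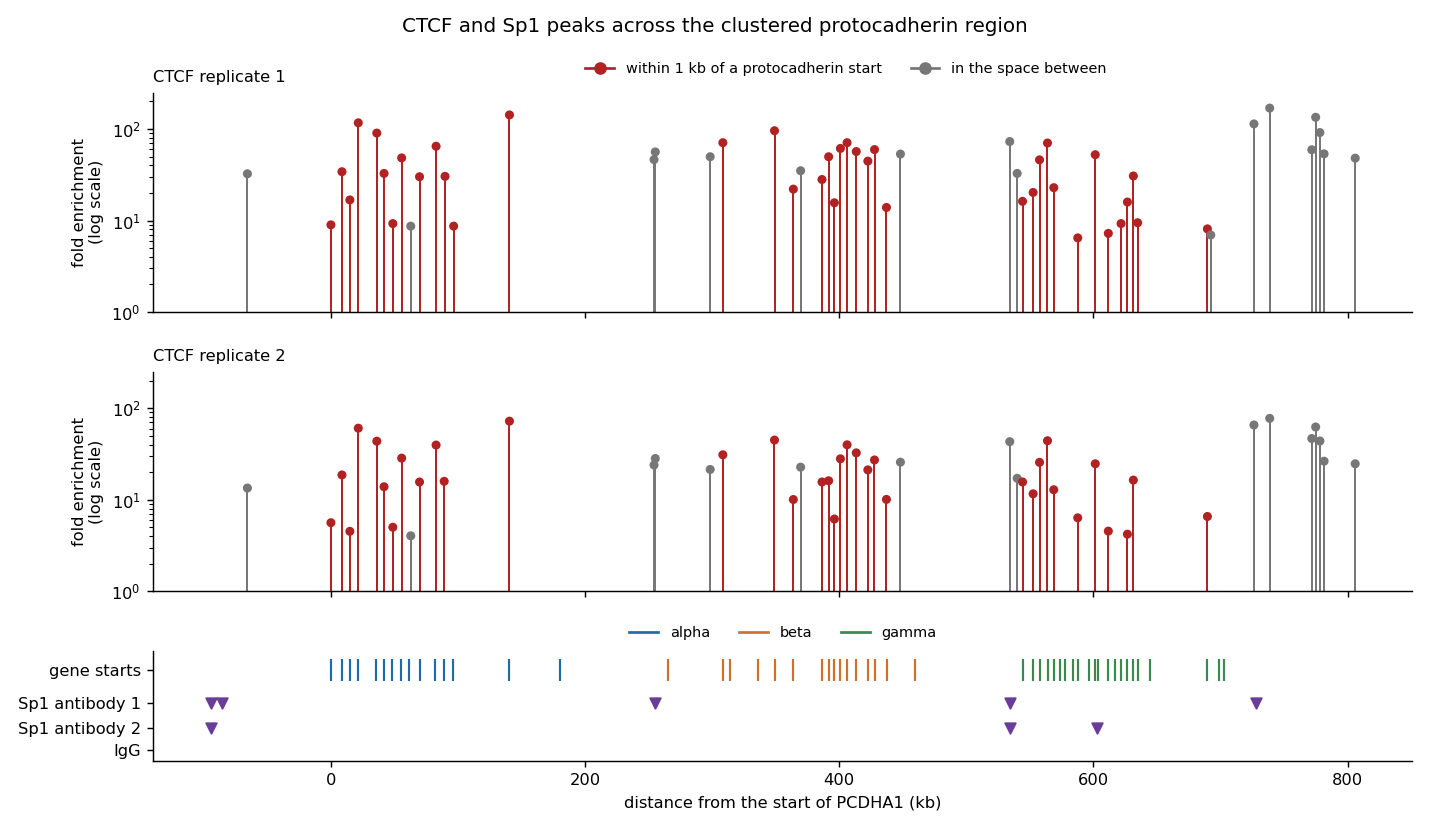
CTCF peaks of replicate 1 (top) and replicate 2 (middle) by distance from the start of PCDHA1 in kb (x axis) and fold enrichment (y axis, log scale), with member starts and Sp1 peaks below; red stems are peaks within 1 kb of a start, gray stems peaks between, and no IgG peak was found. Replicate 2 repeats the pattern of replicate 1 at lower values, and the tallest gray stems, up to 169.3-fold in replicate 1, lie past the gamma genes.

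In the alpha cluster, 13 of 15 genes had a CTCF peak in replicate 1 and 12 in both. The strongest of all 53 starts was PCDHAC1, the first of the C-type genes at the end of the cluster, at 142.5-fold in replicate 1 and 72.26-fold in replicate 2. Its summit lay 318 and 314 bp inside the gene, in the untranslated part of its first exon. PCDHA4 followed at 116.9-fold and 60.56-fold, and PCDHA5 had 90.29-fold and 43.65-fold. The order of these 3 genes was the same in both replicates.

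Lower in the alpha cluster, PCDHA11 measured 64.82-fold and 39.62-fold, and PCDHA8 measured 48.33-fold and 28.51-fold. PCDHA2, PCDHA6, PCDHA10 and PCDHA12 lay between 30.1-fold and 34.15-fold in replicate 1 and between 13.88-fold and 18.67-fold in replicate 2, and, apart from PCDHA2, the highest of the 4 in both, their order changed between replicates. PCDHA3 had 16.78-fold and, lowest of the alpha start peaks in replicate 2, 4.518-fold. PCDHA7 (9.26 and 5.008) and PCDHA1 (8.971 and 5.614) changed places between replicates, while PCDHA13 had its peak of 8.682-fold in replicate 1 only. PCDHA9 and the C-type gene PCDHAC2 had no summit within 1 kb.

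Alpha genes differed from beta and gamma genes in where the summit lay. In replicate 1 the summits of PCDHA4, PCDHA5, PCDHA7, PCDHA8, PCDHA12 and PCDHA13 lay 568 to 618 bp inside the gene, in its coding exon. Those of PCDHA1, PCDHA2, PCDHA3, PCDHA6 and PCDHA10 lay 11 to 63 bp before the start. The matrix found both kinds of site in many of the same genes. In the stretch of about 100 bp that ends at the start, an element on the plus strand scored past the level that 5% of background windows of that length reached (6.72 bits, the short-window level) in 10 of 15 alpha genes. Past the stricter level set for windows of 1 kb on each side (13.12 bits), 10 alpha genes had an exonic match on the plus strand, counted from the RefSeq start for PCDHA9 and PCDHA11, whose GENCODE records begin farther upstream. The match of PCDHA11 scored 17.62 bits. Peaks of the alpha genes were wide, with a median of 1168 bp in replicate 1 against 651 bp for beta and 505 bp for gamma genes. In each replicate 8 alpha peaks covered both the best upstream and the best exonic stretch. They include PCDHA2, whose exonic stretch scored 13.05 bits, under the stricter level. They also include PCDHA11, whose upstream element was found from the RefSeq start and is not among the 10 upstream matches. The summit of PCDHA12 was at +609 in replicate 1 and at −53 in replicate 2, within peaks that cover both positions. In the other 34 genes with CTCF in both replicates the summits were at most 24 bp apart.

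**Figure D3:**
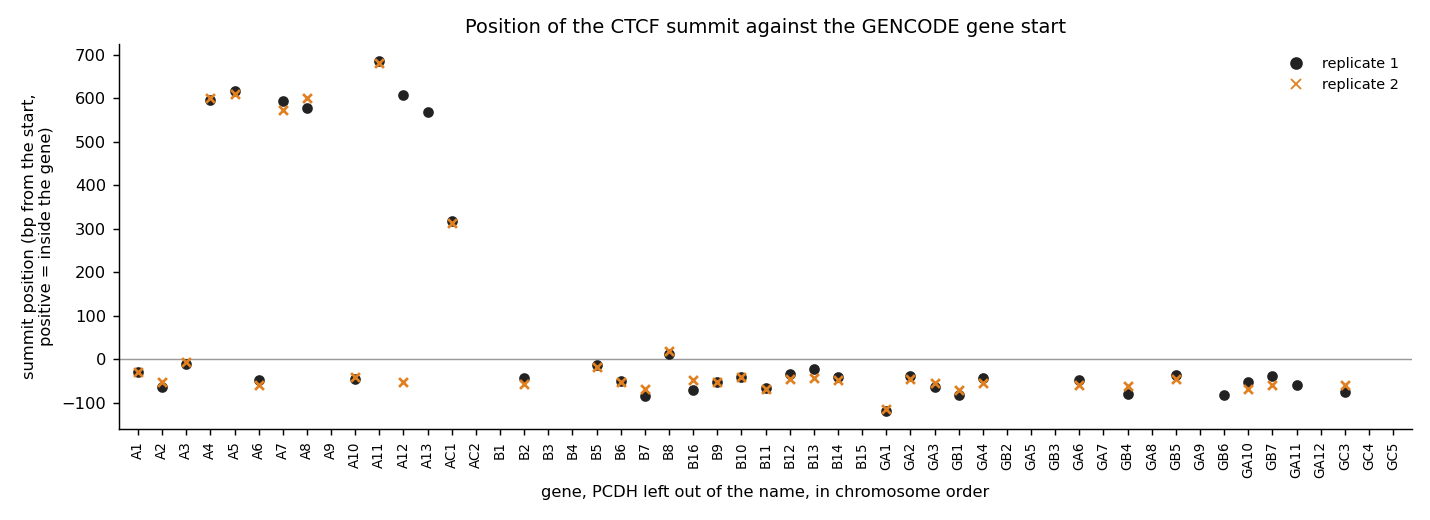
Distance of the CTCF summit from the GENCODE gene start in bp (y axis, positive inside the gene) for each member in chromosome order (x axis), with replicate 1 as dots and replicate 2 as crosses. The beta and gamma summits lie near or before the start, and those of PCDHA4, PCDHA5, PCDHA7 and PCDHA8 lie near +600 in both replicates, between 574 and 618 bp inside.

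The choice of start matters for PCDHA9 and PCDHA11. The GENCODE record of PCDHA11 begins 774 bp before the RefSeq start, and its summits at +685 and +682 are the farthest inside the 1 kb limit. Against the RefSeq start they lie 89 and 92 bp before the gene, beside the upstream element shown above (10.23 bits). The record of PCDHA9 begins 610 bp before its RefSeq start. Its CTCF peak, with summits at +1147 and +1172, lay just outside the limit and was counted in the space between, at 8.682-fold and 4.037-fold. With RefSeq starts, 36 of 53 genes had CTCF in both replicates, PCDHA9 being the gene gained.

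PCDHA7 and PCDHA9 share more than the element. The 30 bases around their exonic matches are the same, and the identity runs on for 592 bp without a difference. In replicate 1, 47.4% of the 100-base words in the PCDHA7 peak and 32.3% of those in the PCDHA9 peak also occur elsewhere in the genome, and both genes were among the weakest of the alpha cluster. Reads that fit more than 1 place can be lost or misplaced, and their part in these low values was not tested. Of the 38 start peaks of replicate 1, 9 held any repeated word of this length and PCDHA7 had the highest share.

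In the beta cluster, whose members are single-exon genes, 12 of 16 genes had CTCF in both replicates. PCDHB5 was highest at 95.79-fold and 44.92-fold. PCDHB2 had 70.9-fold and 31-fold, and PCDHB10 had 70.9-fold and 39.87-fold, the same value in replicate 1 to the digits deposited. The next members were PCDHB9 (61.35 and 28.01), PCDHB13 (59.61 and 27.23) and PCDHB11 (56.72 and 32.55), whose order changed between replicates.

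PCDHB8 and PCDHB12 followed, at 49.77-fold and 16.13-fold and at 44.57-fold and 21.2-fold. PCDHB7 had 28.07-fold and 15.64-fold and PCDHB6 had 22.03-fold and 10.06-fold. At the low end, PCDHB16 had 15.63-fold and 6.159-fold and PCDHB14 had 13.89-fold and 10.09-fold, and these 2 changed places between the replicates. PCDHB1, PCDHB3, PCDHB4 and PCDHB15 had no CTCF peak. Of these, PCDHB1 is the one known to lack the conserved element, and the highest score upstream of its start was 1.02 bits, on the minus strand.

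PCDHB3, PCDHB4 and PCDHB15 carried the element without a peak. Their upstream matches scored 9.76, 8.71 and 7.55 bits, within the range of the beta genes with both a match and a peak, where PCDHB12 had 7.1 bits and PCDHB9 had 19.47 bits. PCDHB9, the best upstream match of all members, was not the strongest beta gene. PCDHB8 went the other way, with a 49.77-fold peak in replicate 1 and no upstream match (−2.33 bits). A plus-strand stretch centered at −2 bp, which runs past the end of that window, scored 5.96 bits, just under the short-window level. The summit of PCDHB8 lay 13 bp inside the gene in replicate 1 and 20 bp inside in replicate 2. Of the 100-base words of its replicate 1 peak, 21.9% were repeated elsewhere.

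In the gamma cluster, 11 of 22 genes had CTCF in both replicates and 2 more in replicate 1 alone. PCDHGB1 was highest at 70.32-fold and 44.16-fold, then PCDHGB4 at 52.38-fold and 24.73-fold and PCDHGA3 at 46.01-fold and 25.63-fold. PCDHGB4 and PCDHGA3 changed places between replicates. PCDHGB7 had 30.67-fold and 16.4-fold, PCDHGA4 had 22.86-fold and 12.87-fold, and PCDHGA2 had 20.26-fold and 11.61-fold.

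The remaining gamma genes were lower in replicate 1. PCDHGA1 measured 16.21-fold and 15.64-fold, and in replicate 2 it stood above PCDHGA4 (12.87) and PCDHGA2 (11.61). PCDHGA10 measured 15.92-fold and 4.206-fold, the widest gap between replicates of any member on the log2 scale (−1.920, beside −1.894 for PCDHA3). PCDHGC3, a C-type gene, had 8.103-fold and 6.561-fold, PCDHGB5 had 7.235-fold and 4.542-fold, and PCDHGA6 had 6.458-fold and 6.346-fold. The 9 gamma genes without a CTCF peak in either list were PCDHGB2, PCDHGA5, PCDHGB3, PCDHGA7, PCDHGA8, PCDHGA9, PCDHGA12 and the C-type genes PCDHGC4 and PCDHGC5. Among the 5 C-type genes of both clusters, PCDHAC1 and PCDHGC3 thus had CTCF in both replicates and PCDHAC2, PCDHGC4 and PCDHGC5 in neither.

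**Figure D4:**
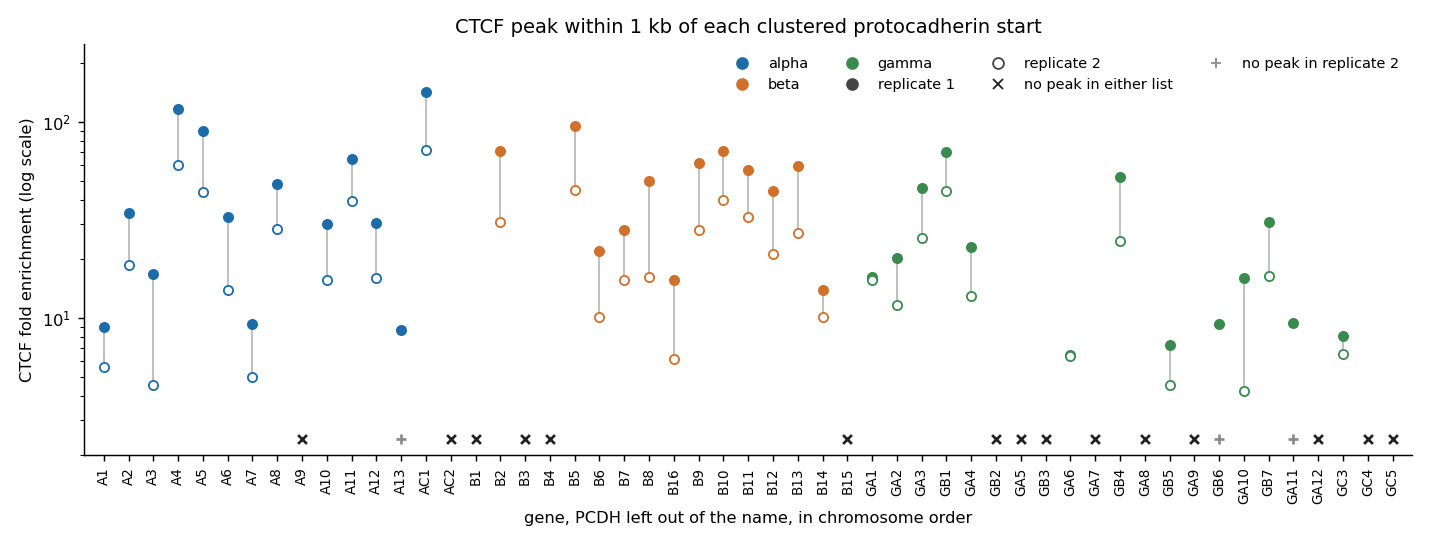
CTCF fold enrichment (y axis, log scale) of the peak within 1 kb of each of the 53 starts (x axis, chromosome order), with replicate 1 filled, replicate 2 open and a gray line joining them; crosses mark genes with no peak in either list and plus signs genes with none in replicate 2. Values in replicate 1 run from 6.458 to 142.5, and 9 of the 15 crosses stand under gamma genes.

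PCDHGB4 and PCDHGB5 had the same upstream bases and unequal peaks. Their 30 printed bases are identical, and the run of identity is 54 bp, a part of peaks 590 and 299 bp wide in replicate 1. The shared match scored 1.14 bits, under both levels, and whether CTCF binds these bases was not tested. CTCF at PCDHGB4 was 7.24 times that at PCDHGB5 in replicate 1 and 5.44 times in replicate 2. The direction was the same in both replicates, and with 2 libraries no test was made. Repeated 100-base words made up 2.24% of the PCDHGB4 peak and 0 of the PCDHGB5 peak in replicate 1.

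Replicate 2 was lower than replicate 1 at all 35 starts with CTCF in both. The median difference was −0.90 on the log2 scale, with a range of −1.92 to −0.03 and an SD of 0.40 over genes. Over all 34125 CTCF peaks shared by the replicates it was −0.89 (quartiles −1.17 and −0.62), close to the value at the protocadherins. The order of the genes was close in both, with Spearman rho 0.949 and Pearson r 0.942 of log2 fold over the 35 genes, which share the same 2 libraries.

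The families differed in level as a description. In replicate 1 the median was 53.25-fold for 12 beta genes, 33.42-fold for 12 alpha genes and 20.26-fold for 11 gamma genes, and in replicate 2 it was 24.21-fold, 17.29-fold and 12.87-fold. The ranges overlapped widely, from 13.89 to 95.79 for beta, 8.971 to 142.5 for alpha and 6.458 to 70.32 for gamma genes in replicate 1.

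Outside the inner sites of the alpha genes the summit sat at the promoter. It lay before the start in 29 genes in replicate 1, at a median of −48 bp (−119 to −11), and in 28 of the genes of replicate 2, at a median of −53 bp (−113 to −6). Past the short-window level, 26 of 53 genes had an upstream match, all 26 on the plus strand, that is, reading toward the gene. By family these were 10 of 15 alpha, 14 of 16 beta and 2 of 22 gamma genes. Of the genes with CTCF in both replicates, 22 of 35 had such a match, of those with a peak in replicate 1 alone 0 of 3, and of those without a peak 4 of 15, namely PCDHB3, PCDHB4, PCDHB15 and PCDHGA12. All these counts use windows that end at the GENCODE start. From the RefSeq start, PCDHA9 and PCDHA11 also had a plus-strand element past this level, at 10.13 and 10.23 bits.

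Most gamma genes scored low, also where CTCF was strong. PCDHGB1 had 3.42 bits, PCDHGA3 2.04 bits and PCDHGB4 1.14 bits, each with a peak over 40-fold in replicate 1. A shorter word found in many of the stretches printed above, CGCTG on the gene's strand, was more frequent. It occurred in the 100 bp before the start in 40 of 53 members (75.5%), against 13.8% of all protein-coding genes, and in 19 of 22 gamma genes. Its last copy lay at a median of −45.5 bp from the start. The word was chosen after these stretches had been seen. It was present at 28 of 35 starts with CTCF in both replicates and at 10 of 15 without a peak, so it did not separate the genes with CTCF from those without. Matrix scores were higher in genes with CTCF, with a median of 7.73 bits over the 35 and 0.70 bits over the 15. This difference pools the families, whose median scores were 10.67 bits (alpha), 8.71 bits (beta) and 1.17 bits (gamma). Gamma genes made up 11 of the 35 and 9 of the 15, and the difference was not tested within families. Matches also stood without a peak and peaks without a match. A match is a description of letters and does not show binding. PCDHGA12 had the best gamma score, 14.67 bits, and no peak, and its match has no CpG and not the word CGCTG.

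**Figure D5:**
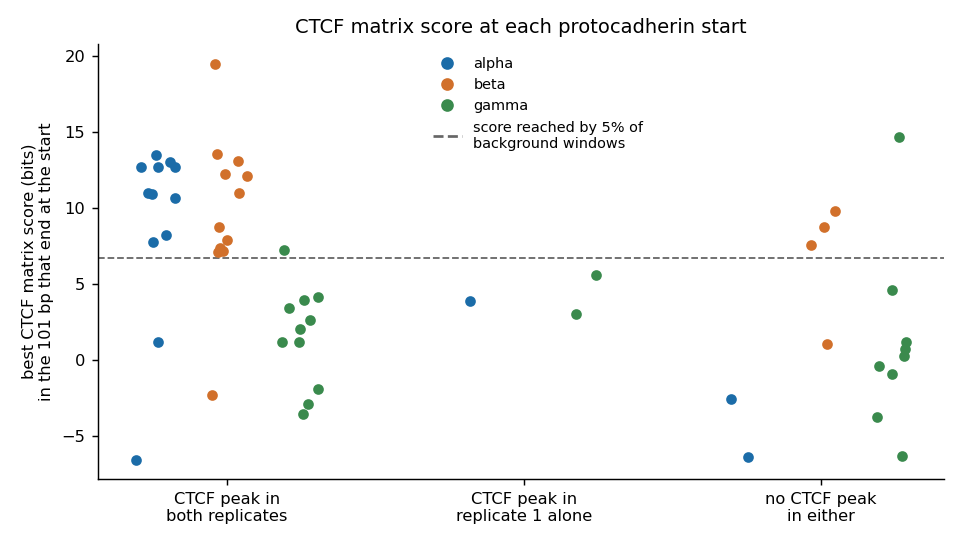
Best CTCF matrix score in bits (y axis) in the upstream stretch of about 100 bp that ends at each start, for genes with a CTCF peak in both replicates, in replicate 1 alone or in neither (x axis), colored by family; the dashed line is the score reached by 5% of background windows, 6.72 bits. Alpha and beta genes with a peak mostly lie above the line and gamma genes with a peak mostly below it, and PCDHGA12 stands alone at 14.67 among the gamma genes without a peak.

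In the space between the starts, 16 CTCF peaks were found in both replicates. Their median was 53.39-fold in replicate 1 and 26.06-fold in replicate 2, beside 32.7-fold and 16.13-fold at the 35 starts with CTCF in both. The space between includes the flanks of 100 kb, so this level is not that of the stretches between neighboring starts alone. The strongest of all peaks in the region lay at chr5:141524473-141525443 in an intron of DIAPH1, a formin gene next to the gamma cluster, at 169.3-fold and 77.47-fold. A second DIAPH1 intron peak at chr5:141560768-141561396 had 134.3-fold and 62.41-fold but no matrix match (best 2.63 bits over the whole peak). The peak at chr5:141512002-141513018, in the last exon that all 22 gamma genes share and in its untranslated part, had 113.7-fold and 65.61-fold.

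Next in strength were a peak at chr5:141563833-141564815 in an exon of the non-coding DIAPH1-AS1 (91.45-fold and 43.91-fold) and one at chr5:141319985-141320749 in TAF7, which encodes a subunit of the general factor TFIID (72.93-fold and 43.15-fold). A peak at chr5:141557700-141558540, also in a DIAPH1 intron, had 59.31-fold and 46.69-fold. These 6 were the highest by the mean log2 fold of both replicates. Of the 16 shared peaks, 7 lay after the last member start, among them 5 of these 6. Between the alpha constant exons and PCDHB1 lay 2 CTCF peaks about 1 kb apart. The first, chr5:141040044-141040842, had 46.3-fold and 23.97-fold, and the other, chr5:141041088-141041757, had 56.14-fold and 28.26-fold.

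Pseudogenes of the beta cluster also had CTCF before their starts. PCDHB17P, a pseudogene between PCDHB6 and PCDHB7, had 34.99-fold and 22.71-fold with summits at −247 and −244 bp from the start of its record, and PCDHB18P, after PCDHB14, had 53.25-fold and 25.74-fold at −246 and −262 bp. A non-coding RNA record also named PCDHB18P starts farther upstream, and the same summits lay −28 and −44 bp from that start. These values lie within the range of the beta genes. PCDHA14, PCDHB19P, PCDHGB8P and PCDHGB9P had no CTCF peak within 1 kb.

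The strand of the matrix match differed between starts and the space between. Over whole peaks of replicate 1 and the stricter level, 11 of 35 start peaks held a match and all 11 were on the plus strand (100%, Wilson interval 74.1 to 100%). This interval treats each peak as 1 draw, although the members are related genes that all lie on the plus strand. In the space between, 9 of 16 held one, 2 on the plus and 7 on the minus strand. Among the plus matches was the coding-exon site of PCDHA9 (17.76 bits), whose peak counts as a start peak when RefSeq starts are used. After the last member start 5 of 6 matches were on the minus strand, facing the promoters, and between the alpha constant exons and PCDHB1 both peaks had a minus-strand match (15.15 and 17.9 bits). Within 50 bp of the summit and at the short-window level, start peaks had 24 plus and 0 minus matches and peaks between had 7 plus and 8 minus. The 5 plus matches gained between ran from 7.84 bits at PCDHB18P to 12.97 bits at TAF7, with 9.88 bits at PCDHB17P, all under the stricter level.

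Sp1 was found at the edges of the locus and at few sites within it. Both antibodies had a peak at the shared promoter of HARS1 and HARS2, which encode histidyl-tRNA synthetases, at 6.841-fold for antibody 1 (chr5:140691320-140691774) and 5.604-fold for antibody 2 (chr5:140691107-140691649). Both also had one next to the TAF7 start, at 11.28-fold (chr5:141320647-141321064) and 3.784-fold (chr5:141320433-141321024), with summits 532 and 518 bp from the CTCF summit there. The 2 shared places were thus promoters of neighbors and not of protocadherins.

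The other Sp1 peaks were each in 1 list. Antibody 1 had a peak in a ZMAT2 intron (chr5:140700140-140700548, 8.451-fold), a weak one after the gamma genes (chr5:141513682-141514076, 3.509-fold), and one at chr5:141040727-141041450, between the alpha constant exons and PCDHB1, at 11.67-fold. The last shared 363 bp with a CTCF peak, and the summits were 122 bp apart. Antibody 2 had a peak of 7.605-fold in the coding exon of PCDHGB4 (chr5:141388732-141389032), 1170 bp inside the gene and so just outside the limit for a start. With 1 library per antibody there is no replicate for any of these peaks.

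Sequence of the promoters was set beside the Sp1 result. The GC box GGGCGG, on either strand, is the usual Sp1 element. RefSeq promoters of 300 bp (hg38) matched 47 of the 53 members, all but PCDHA3, PCDHA13, PCDHB6, PCDHB11, PCDHGA12 and PCDHGC5. A GC box was in 1 of the 47, PCDHAC1, against 59.2% of 15316 protein-coding promoters. Median GC content was 39.7% for the 47 and 63% for all. Of the 8 Sp1 peaks in the region, 3 had a GC box within 50 bp of the summit, those of both antibodies beside TAF7 and that of antibody 1 near PCDHB1. Whether the base composition had a part in the absence of Sp1 peaks was not tested.

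Related genes outside the cluster were mixed. Of 12 non-clustered protocadherins, 3 had CTCF in both replicates (25%, beside 15.4% of all genes), PCDH1 at 110.4-fold and 69.39-fold, PCDH12 at 143.8-fold and 67.61-fold and PCDH15 at 4.17-fold and 6.243-fold. Sp1 antibody 1 had a peak at PCDH7, PCDH9, PCDH11X and PCDH12, 4 of the 12 (33.3%, beside 32.1%), and antibody 2 at 1, PCDH11X (8.33%, beside 20.6%). Of 15 genes known to regulate the cluster, DNMT3A, NIPBL, STAG1 and STAG2 had CTCF in both replicates, 4 of 15 (26.7%, beside 15.4% of all genes). Sp1 antibody 1 had a peak at 10 of them (66.7%, beside 32.1%) and antibody 2 at 3 (20%, beside 20.6%). Those of antibody 1 included CTCF itself at 8.646-fold and the cohesin genes RAD21 at 24.58-fold, SMC1A at 17.3-fold and SMC3 at 11.73-fold.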

How the data were processed

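Chromatin from U-2 OS cells was sequenced in 8 libraries, of which 5 had a peak list. Per the labels and the study's methods, the authors used Cutadapt 2.6 for trimming, Bowtie2 for pairs on hg38, samtools against duplicates and MACS2 2.2.7.1 for peaks, one library at a time. The methods also describe calls with a liberal p cutoff, without the local background and against merged controls, made to compare replicates. Whether the deposited lists came from those calls is not given in the sources used here. The deposited lists give fold enrichment (a ratio over control), −log10 p and −log10 q (lowest 1.3), and a score that was not used. They hold no counts, library read numbers were not used here, and no test was made between groups of 1 or 2 libraries.

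Starts and annotation came from GENCODE 44, and promoters from RefSeq. Peaks were shared when at least 1 bp overlapped. A 20-bp CTCF matrix was scanned on both strands, with levels reached by 5% of windows 2 kb from shared peaks. Scripts used Python 3.11.15, pandas 2.3.3 and pyfaidx 0.9.0.4, and were tested on simulated data. Every member was accounted for, and between starts the 6 highest CTCF peaks by mean log2 fold and every Sp1 peak were named. Members and lists were chosen with earlier results of these data known. The short upstream windows, the RefSeq starts, the ranking by fold and the word CGCTG were added after the data were seen. One further regulator gene was left out and is not reported here.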

Additional observations from a re-analysis of the deposited data

How the results depend on the processing

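Of 66 alternatives computed, 52 left the value within a set margin and 14 moved it. The margin was 1.5 times for counts and gene shares, the spread of the replicate medians for folds, and the Wilson interval for strand shares. A reversal of direction was not scored. No paired analysis was possible because the groups with peak lists share fewer than 2 replicate numbers, and each Sp1 antibody and IgG has 1 library. Leaving out 1 CTCF replicate gave 35 to 38 starts with CTCF, 51 to 55 peaks in the region, a median of 16.13 to 32.7-fold at starts (22.43 for the mean of both) and 26.06 to 53.39-fold between (37.31). Summits within 500 bp gave 29 starts, losing PCDHA4, PCDHA5, PCDHA7, PCDHA8, PCDHA11 and PCDHA12, and within 2 kb 36. The values that moved were these. Equal lists of 5973 peaks left 1 start with CTCF and 3.03% of all genes when ranked by −log10 p, and 2 starts and 2.59% when ranked by fold, an alternative chosen after seeing the data. Of the 53 starts, this was a lower share than that of all genes when ranked by −log10 p. It was a higher share when ranked by fold. Peak intervals that held the start gave 7.11% of all genes and any transcript start 24.3%, in place of 15.4%, while the protocadherin counts were 33 and 36. Within 2 kb, Sp1 reached 2 starts, PCDHGB4 and PCDHGA8, both through the same antibody 2 peak in the PCDHGB4 coding exon. Without flanks the region held 3 Sp1 sites in place of 6 (2 for antibody 1), and with 200 kb on each side 12 (9 for antibody 1 and 5 for antibody 2). Matrix matches within 1 kb of a start were in 12 members at the 5% level, in 5 at the 1% level, and in 26 by the short upstream windows. The plus-strand share of matches in the space between was 22.2%, and 46.7% within 50 bp of the summit, inside its wide Wilson interval. The number of Sp1 libraries and their read depth, not used here, limit what the 0 at the starts can show, since a list holds only sites that passed the caller.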

Other observations

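Among genes known to regulate the cluster, those with a CTCF peak in both replicates spanned a wide range. STAG1, a cohesin subunit, had 144.9-fold in replicate 1 and 32.55-fold in replicate 2, and DNMT3A, a DNA methyltransferase, 127.4-fold and 60.84-fold. STAG2 had 73.79-fold and 44.66-fold and NIPBL, the cohesin loader, 34.72-fold and 8.808-fold. DNMT1, REST and WAPL had no peak of any antibody within 1 kb of the GENCODE start. NIPBL, SETDB1 and SMC1A were the 3 with peaks of both Sp1 antibodies, at 4.673-fold and 13.95-fold, 4.104-fold and 7.602-fold, and 17.3-fold and 7.126-fold for antibody 1 and antibody 2. With antibody 1 alone, DNMT3B, another DNA methyltransferase, had 8.036-fold, STAG1 6.036-fold, SMCHD1, a chromatin protein of the SMC family, 6.164-fold, and WIZ, a zinc finger protein, 4.829-fold.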
